A study of Mus musculus with 12 samples.

Results

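Syndecans and glypicans are the main families of heparan sulphate proteoglycans on the cell surface. Syndecans cross the membrane and end in a short cytoplasmic tail, glypicans are held to the outer leaflet by a glycolipid anchor, and the heparan sulphate chains of both bind growth factors such as Hedgehog, Wnt, FGF, BMP and midkine and alter how cells receive them. In tooth germs syndecan-1 is known from both the epithelium and the condensing dental mesenchyme. The 4 syndecan genes (Sdc1 to Sdc4) and 6 glypican genes (Gpc1 to Gpc6) were picked by gene symbol, and all 10 were found among the 25899 genes of the deposited table. Of these, 9 had a mean of 1 RPKM or more (reads scaled by gene length and library size) and were tested, while Gpc5 lay below that level.

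Messenger RNA was sequenced from the growing root end of mandibular first molars of C57BL/6 mice at postnatal day 4. There were 6 libraries from mice with both Nfic copies disrupted (Nfic-/-, null) and 6 from Nfic+/- littermates (heterozygous controls), so every animal carried at least 1 disrupted copy and no wild-type group is described. Nfic encodes a nuclear factor I transcription factor that molar roots need. The series speaks of 6 littermate pairs, the libraries are numbered 5 to 10 in each genotype, and no label says that animals were pooled. The tissue is a mixture of epithelium and mesenchyme.

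Library depth, estimated from the lowest values of the deposited table, was 70.2 to 96.4 M reads. Nfic itself ranged from 11.3 to 24.5 RPKM in the heterozygous and from 7.90 to 16.5 RPKM in the null libraries, so the targeted gene was lower on average (67.8% of the heterozygous mean) but its groups overlapped and its transcript was not absent. Libraries 8 and 9 of both genotypes held intestinal transcripts that were close to 0 in the other 8 libraries, with the summed level of 5 intestinal markers reaching 78.5 RPKM in a heterozygous and 87.6 RPKM in a null library. Without these 4 libraries the differences named below were -0.92 for Sdc3, -0.88 for Gpc6, 0.35 for Gpc1 and 0.43 for Gpc2. Ameloblasts were well represented, and Amelx, the amelogenin gene, stood at 60501 ± 27370 RPKM in the heterozygous libraries (SD, n = 6).

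The promoters of the 2 members that serve as examples below, one lower and one higher on average in the null molars, are shown because nuclear factor I proteins bind a palindrome, TTGGC followed after 5 unspecified bases by its reverse complement, and, less tightly, TTGGC alone. Each window runs from 250 bases before to 50 bases after the start site (RefSeq, GRCm38.p6, the build called mm10), written 5′ to 3′ on the gene's own strand, and capitals mark TTGGC and the GC box GGGCGG on either strand. The Sdc3 window lies at chr4:130792287-130792586 on the plus strand and the Gpc2 window at chr5:138279888-138280187 on the minus strand.
Sdc3: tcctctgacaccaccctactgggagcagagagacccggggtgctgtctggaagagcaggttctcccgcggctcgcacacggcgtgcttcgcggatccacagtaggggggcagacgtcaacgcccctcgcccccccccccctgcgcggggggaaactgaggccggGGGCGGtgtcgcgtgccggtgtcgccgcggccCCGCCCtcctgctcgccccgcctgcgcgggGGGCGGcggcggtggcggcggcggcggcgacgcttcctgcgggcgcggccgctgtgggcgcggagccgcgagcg
Gpc2: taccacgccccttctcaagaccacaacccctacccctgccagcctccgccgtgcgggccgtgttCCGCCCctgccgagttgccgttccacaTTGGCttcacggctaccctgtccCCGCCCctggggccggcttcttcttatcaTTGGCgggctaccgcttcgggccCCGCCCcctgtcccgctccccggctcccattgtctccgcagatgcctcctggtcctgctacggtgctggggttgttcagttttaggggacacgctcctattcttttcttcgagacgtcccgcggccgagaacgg

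Of the 10 members, 7 had a promoter in that table (Sdc1, Sdc3, Sdc4, Gpc2, Gpc3, Gpc4 and Gpc5). The full palindrome was in none of the 7, and in 0.0365% of the 32851 promoters of this length. TTGGC on either strand occurred 2 times in Gpc2, 1 time each in Gpc3 and Gpc5, and not in the windows of Sdc1, Sdc3, Sdc4 and Gpc4, against 46.7% of all promoters with at least 1 match. Both matches in Gpc2 overlap a CCAAT match on the opposite strand, and CCAAT was in 37.4% of all promoters. TATAAA (13.6% of all promoters) was found in Gpc5 only, and the Gli motif TGGGTGGTC (0.253%) in none of the 7. GGGCGG was in all 7 windows and in 35.7% of all promoters, and the windows of the 7 were 54.7% to 77.7% G and C against a median of 52.7%. The Sdc3 window was the richest of the 7, at 77.7%. A match is a string of letters and not a measured binding site.

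In the heterozygous molars the members spanned a wide range of levels, and Gpc3 was the most abundant. Gpc3, a glypican that restrains Hedgehog signalling in mouse embryos, had 132 ± 19.999 RPKM and Gpc1 had 77.5 ± 15.1 RPKM (SD, n = 6 each). Sdc1, the syndecan of epithelia and of condensing dental mesenchyme, had 58.4 ± 8.05 RPKM, and Sdc3, best known from the nervous system and musculoskeletal tissue, had 35.9 ± 6.61 RPKM. The middle of the order was held by Gpc4 (24.2 ± 3.12 RPKM), Sdc2 (22.5 ± 3.40 RPKM), Gpc2 (19.4 ± 4.11 RPKM) and the focal adhesion syndecan Sdc4 (15.6 ± 4.65 RPKM). Gpc6 had 4.66 ± 2.69 RPKM, and Gpc5 was near the limit at 0.190 ± 0.127 RPKM.

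Several neighbours in this order could not be separated by their spread. Over the 6 heterozygous libraries the ranges of Gpc1 and Sdc1 overlapped, and so did those of Gpc4 with Sdc2, Sdc2 with Gpc2, and Gpc2 with Sdc4. The ranges did not overlap between Gpc3 and Gpc1, Sdc1 and Sdc3, Sdc3 and Gpc4, Sdc4 and Gpc6, or Gpc6 and Gpc5. The order by the median was the same as the order by the mean for all 10 genes. In the null molars Sdc3 no longer stood clear of Gpc4: it was above Gpc4 in 6 of 6 heterozygous libraries and in 2 of 6 null libraries. Other neighbours shifted too. The ranges of Gpc3 and Gpc1 overlapped in the null libraries, with Gpc3 above in 5 of 6, while those of Gpc2 and Sdc4 did not. Sdc2 was above Gpc2 in 4 of 6 heterozygous and 2 of 6 null libraries.

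**Figure D1:**
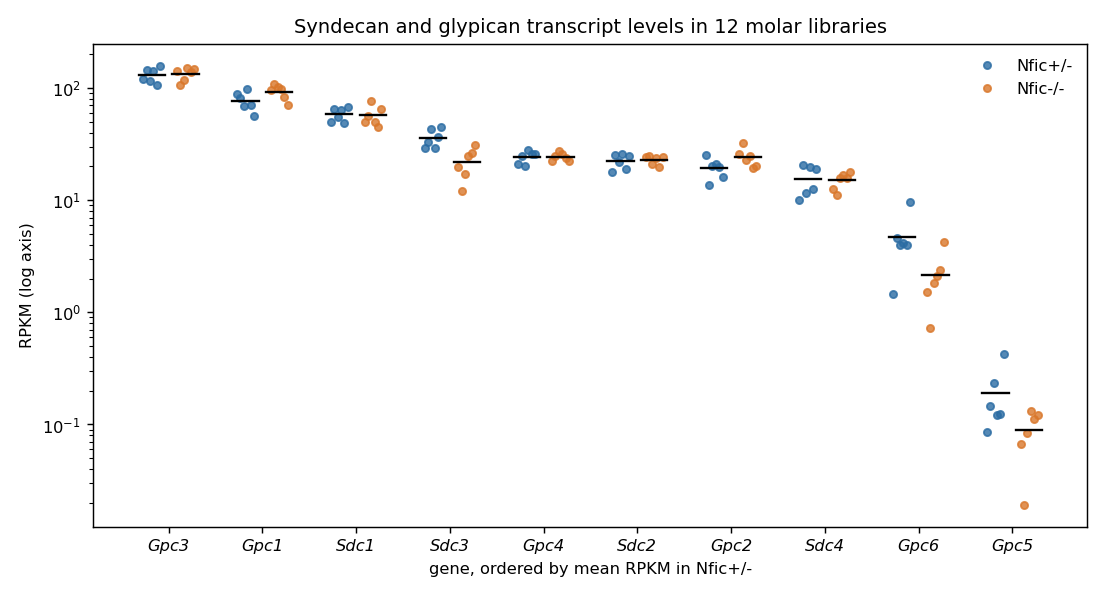
RPKM on a log axis of each syndecan and glypican gene in the 6 Nfic+/- (blue) and 6 Nfic-/- (orange) libraries, with 1 point per library and a black bar at the mean. Gpc3 is highest, from 108 to 158 RPKM in Nfic+/-, Gpc5 lies below 0.5 RPKM throughout, and the Nfic-/- points of Sdc3 and Gpc6 sit lower on average.

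The summed level of the 10 genes was close in the 2 genotypes, with means over 6 libraries each of 390 ± 37.8 RPKM (heterozygous, SD) and 396 ± 16.1 RPKM (null). Gpc3 alone made up 31.2% to 37.4% of that sum in the heterozygous and 28.3% to 37.5% in the null libraries. Syndecans together contributed 33.9% ± 2.84 and 29.5% ± 3.14 (SD, n = 6 each). The ranges of the sum and of both shares overlapped between the genotypes.

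Between genotypes no member passed the threshold. By limma on log2(RPKM + 1), with Benjamini-Hochberg adjustment over all 12094 tested genes, 0 of 9 tested members had an adjusted p under 0.05, and so did 0% of all tested genes. At an unadjusted p under 0.05 there were 2 of 9 members, Sdc3 and Gpc6, both lower in the null molars, against 5.34% of all tested genes in either direction, 2.72% lower and 2.62% higher. The median difference over the 9 members was 0.02, and it was -0.0028 over all tested genes. In 0 of 9 members did the ranges of the 2 genotypes fail to overlap, against 0.157% of all tested genes (0.0331% with the null libraries lower and 0.124% with them higher). With 9 genes, counts of this size say little about the families as a whole.

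Among the transmembrane members, Sdc3 had the largest difference of the 4. Sdc3 (ENSMUSG00000025743, chromosome 4, 130792537 to 130826319, plus strand, GRCm38) had a lowest, median and highest level of 29.2, 34.9 and 44.6 RPKM in the heterozygous libraries. In the null libraries these were 12.1, 22.2 and 31.2 RPKM. The null values lay below the heterozygous median in 6 of 6 libraries and below the lowest heterozygous library in 5 of 6, with null library 10 as the exception, so the groups overlapped through that library. At least 5 of 6 null libraries lay below the lowest heterozygous library in 0.43% of all tested genes, and at least 4 of 6 in 2.51%. The count of 5 was set after the Sdc3 value had been seen, so it was fitted to that gene and the smaller share is a description only.

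The null mean of Sdc3 was 60.7% of the heterozygous mean. On the log2(RPKM + 1) scale the null libraries differed by -0.74 (SE 0.194, 95% interval -1.15 to -0.32), with an unadjusted p of 0.00211 and an adjusted p of 0.934 by limma, and its p ranked 16 among all tested genes. That small p was known from earlier results when the genes were chosen. Libraries 5 to 7 alone gave -1.07, and libraries 8 to 10 alone gave -0.40. The sample numbers in the column names repeat between these sets, so they come from at least 2 sample sheets, although no label names a run. The difference between the sets themselves had an unadjusted p of 0.0395 and an adjusted p of 0.9997 by limma.

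The lowest Sdc3 value, 12.1 RPKM, came from null library 6, and without that library the difference was -0.59. These levels rest on 5076 to 25566 reads per library. As Sdc3 stood lower, its share of the summed syndecan RPKM was 27.3% ± 4.50 in the heterozygous and 18.6% ± 5.29 in null molars (SD, n = 6 each). The share ranged from 21.1% to 32.5% in the heterozygous libraries and from 11.6% to 24.6% in the null libraries, and the ranges overlapped.

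**Figure D2:**
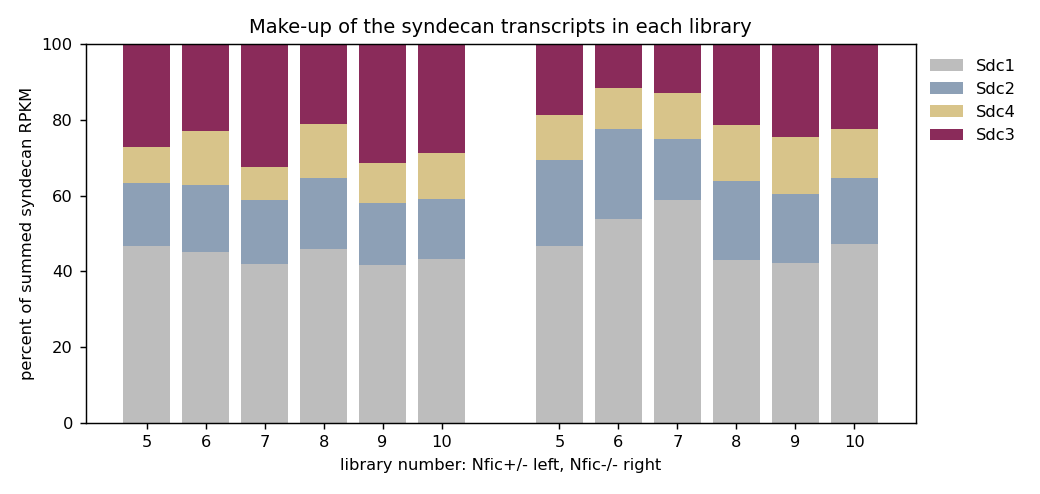
Percent of the summed syndecan RPKM taken by each of Sdc1, Sdc2, Sdc4 and Sdc3 in each library, with Nfic+/- libraries 5 to 10 on the left and Nfic-/- libraries 5 to 10 on the right. Sdc3 (top segment) takes 21.1% to 32.5% in Nfic+/- and 11.6% to 24.6% in Nfic-/-, with the smallest shares in Nfic-/- libraries 6 and 7.

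The other syndecans had nearly equal means in the 2 genotypes. Sdc1 (chromosome 12, 8771323 to 8793715) had a lowest, median and highest level of 48.7, 59.5 and 67.4 RPKM in the heterozygous set against 44.7, 52.8 and 77.2 RPKM in the null set. The null libraries held both the lowest and the highest Sdc1 value, and the difference was -0.05 (95% interval -0.33 to 0.24). Sdc2, a syndecan of mesenchymal cells (chromosome 15, 32920723 to 33034935), had 17.9, 23.4 and 26.0 RPKM in the heterozygous set against 19.6, 24.1 and 24.8 RPKM in the null set. Its null range lay inside the heterozygous range, with a difference of 0.04 (95% interval -0.18 to 0.26).

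Sdc4 (chromosome 2, 164424247 to 164443887) had 10.1, 15.7 and 20.6 RPKM in the heterozygous set against 11.2, 15.8 and 18.03 RPKM in the null set. The heterozygous values fell into 3 libraries from 10.1 to 12.6 RPKM and 3 from 18.9 to 20.6 RPKM, and the difference was -0.01 (95% interval -0.40 to 0.37). The adjusted p of Sdc1, Sdc2 and Sdc4 was 0.99997 by limma. Differences as large as these intervals reach cannot be told from none here, and the signs of all 3 changed under other settings.

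Among the glypicans, Gpc6 stood lower on average and Gpc1 and Gpc2 higher. Gpc6, which promotes Hedgehog signalling in the mouse growth plate (chromosome 14, 116925315 to 117976544), had a lowest, median and highest level of 1.47, 4.09 and 9.66 RPKM in the heterozygous libraries. In the null libraries these were 0.731, 1.97 and 4.27 RPKM. Null libraries lay below the heterozygous median in 5 of 6 cases, but heterozygous library 5 (1.47 RPKM) was lower than 5 of the null libraries, so the groups overlapped widely.

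The null mean of Gpc6 was 46.0% of the heterozygous mean. Its difference was -0.80 (SE 0.305, 95% interval -1.46 to -0.14), with an unadjusted p of 0.0204 and an adjusted p of 0.934 by limma. Libraries 5 to 7 alone gave -0.84, and the rest gave -0.77. Without heterozygous library 10, the highest, it was -0.59, and without heterozygous library 5, the lowest, it was -1.01. Gpc5, the neighbour of Gpc6 on chromosome 14 (115092215 to 116525179), had 0.0852, 0.134 and 0.427 RPKM in the heterozygous set against 0.0192, 0.0983 and 0.132 RPKM in the null set. That is 28 to 182 reads in a heterozygous and 6 to 50 reads in a null library, and Gpc5 was not tested at this level. Its null mean was 47.1% of the heterozygous mean, and 6 of 6 null libraries lay below the heterozygous median, but the ranges overlapped. With a lower filter, a mean of 0.1 RPKM, its difference was -0.12 (adjusted p = 0.981 by limma), on a scale that understates changes at such low levels.

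Gpc1, a glypican that binds FGFs (chromosome 1, 92831645 to 92860779), had a lowest, median and highest level of 56.8, 75.6 and 98.7 RPKM in the heterozygous set against 70.5, 96.8 and 109.9 RPKM in the null set. Null libraries exceeded the heterozygous median in 5 of 6 cases and the highest heterozygous library in 2. The difference was 0.27 (SE 0.138, 95% interval -0.03 to 0.56; unadjusted p = 0.0728, adjusted p = 0.945 by limma). Gpc2, known from the developing nervous system (chromosome 5, 138273655 to 138280005, minus strand), had 13.7, 19.9 and 25.5 RPKM in the heterozygous set against 19.5, 23.7 and 32.6 RPKM in the null set. The lowest value came from heterozygous library 6 and the highest from null library 6.

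The Gpc2 difference was 0.32 (SE 0.148; unadjusted p = 0.0515, adjusted p = 0.934 by limma), and without the 2 libraries numbered 6 it was 0.14. The Gpc2 value may include reads of a neighbour. Gal3st4, a sulphotransferase gene on the same strand, lies just downstream (138264921 to 138272840), and the annotated transcript unit Gm43720 (138264952 to 138279958) spans both genes. Gal3st4 averaged 43.0 ± 11.5 RPKM with 1 intact Nfic copy and 53.9 ± 13.3 RPKM without (SD, n = 6 each), and Gpc2 and Gal3st4 correlated at r = 0.992 over the 12 libraries. No source used here says how reads of such a joint transcript were assigned.

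The X-linked pair Gpc3 and Gpc4 showed little difference. Gpc3 (X chromosome, 52272426 to 52613950) had a lowest, median and highest level of 107.5, 132 and 158 RPKM in the heterozygous set against 107.6, 141 and 152 RPKM in the null set. The difference was 0.03 (95% interval -0.22 to 0.28). Gpc4 (X chromosome, 52053021 to 52165252), a glypican that acts in Wnt and BMP signalling, had 20.1, 25.2 and 28.2 RPKM in the heterozygous set against 22.4, 24.3 and 27.3 RPKM in the null set. With a difference of 0.02 (95% interval -0.17 to 0.21), Gpc4 had the narrowest interval of the 9 tested members. The null range lay inside the heterozygous range for both genes, and the adjusted p of each was 0.99997 by limma.

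**Figure D3:**
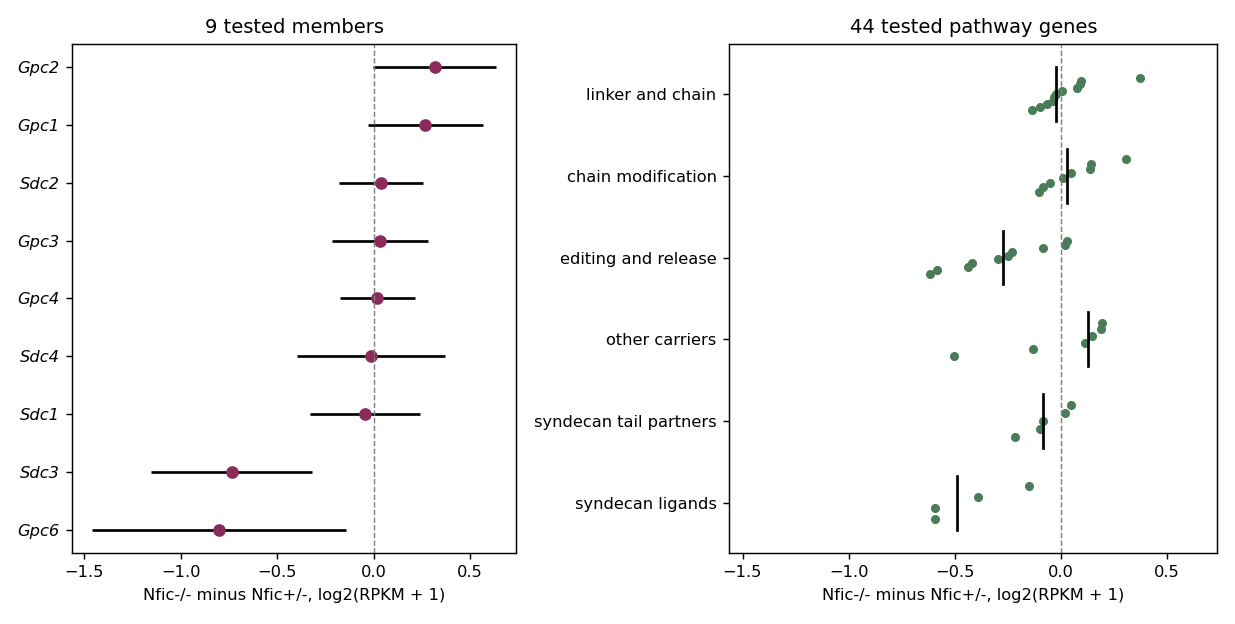
Difference of Nfic-/- minus Nfic+/- in log2(RPKM + 1). Left, the 9 tested syndecan and glypican genes with 95% intervals; right, 44 tested genes of the heparan sulphate pathway by list, with 1 point per gene and a black bar at the median. Sdc3 (-0.74) and Gpc6 (-0.80) have intervals below 0, and the editing and release list and the ligand list have medians of -0.27 and -0.49.

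Pathway genes were examined as 6 lists with 56 genes, of which 44 were tested. The lists cover genes that build, modify and release heparan sulphate, other proteins that carry it, and syndecan tail partners and ligands. None of the 44 reached the adjusted threshold by limma (0 higher, 0 lower), and 1, Nrp1, had an unadjusted p under 0.05, a smaller share than the 5.34% of all tested genes. Over the 44 genes the median difference was -0.06, with 18 above 0 and 26 below, while 5914 of all tested genes stood above 0 and 6180 below. The 11 tested genes that make the linker and the chain had a median difference of -0.02 (5 above 0, 6 below). Their smallest p belonged to Acpl2 (Pxylp1 in the annotation), a xylose phosphatase gene of the linker, at 46.1 ± 13.8 and 58.0 ± 9.45 RPKM, heterozygous first (SD, n = 6 each). Fam20b, the xylose kinase that opposes it, had 11.7 ± 0.448 and 12.5 ± 1.01 RPKM, and the linker galactosyltransferase gene B3galt6 had 4.47 ± 0.5003 and 4.83 ± 0.386 RPKM.

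The 8 tested chain-modifying enzymes had a median difference of 0.03 (5 above 0, 3 below). The sulphotransferase genes Hs3st6, Hs3st3b1 and Hs6st1 led the list, with differences of 0.31, 0.14 and 0.14, and none passed (adjusted p 0.998, 0.99997 and 0.99997 by limma). Of the 10 tested genes that edit the chain or release the proteoglycan, 8 stood below 0, with a median of -0.27. Mmp14, a membrane protease that can shed syndecans, had 121 ± 20.1 and 101 ± 16.7 RPKM, and Notum, a secreted Wnt deacylase first described as cutting glypican anchors, had 16.3 ± 5.76 and 11.8 ± 3.91 RPKM (SD, n = 6 each). Mmp2 had 65.3 ± 24.5 and 45.5 ± 24.7 RPKM. The adjusted p of these 3 genes was 0.973 to 0.980 by limma.

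Other proteins that carry heparan sulphate had a median difference of 0.13 over 6 genes (4 above 0, 2 below). The semaphorin and VEGF co-receptor gene Nrp1 had 4.38 ± 0.971 and 2.87 ± 1.08 RPKM (SD, n = 6 each), a difference of -0.50 (unadjusted p = 0.0162, adjusted p = 0.934 by limma). Cd44 and Tgfbr3 went the other way, with differences of 0.19 and 0.11. The 5 tested partners of the syndecan tail had a median of -0.09, and Prkca, Cask and Sdcbp (syntenin) differed by -0.22, -0.10 and -0.09. All 4 ligands listed for syndecans stood below 0, with a median of -0.49: fibronectin (Fn1) had 26.5 ± 11.6 and 18.6 ± 11.3 RPKM, tenascin C (Tnc) 45.4 ± 19.9 and 32.9 ± 22.3 RPKM, and pleiotrophin (Ptn), which binds Sdc3, 113 ± 48.4 and 87.6 ± 46.8 RPKM. The spread of these 3 was larger than the difference of their means, and their adjusted p was 0.99997 by limma.

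Markers of the tissue layers also differed on average in the same libraries. All 10 mesenchyme markers stood below 0 in the null molars (median -0.55), and their summed level was 332 to 947 RPKM in the heterozygous and 163 to 788 RPKM in null libraries. All 10 epithelium markers stood above 0 (median 0.30), with sums of 1406 to 2147 and 1712 to 2552 RPKM. The 4 odontoblast markers (median -0.51; sums 2381 to 3755 and 1389 to 3027 RPKM) and the 4 tested of 6 follicle markers (median -0.75; sums 144 to 273 and 63.7 to 209 RPKM) stood below 0, and so did all 5 endothelial markers (median -0.47; sums 18.7 to 36.2 and 8.57 to 30.3 RPKM) and all 5 macrophage markers (median -0.42; sums 25.1 to 55.8 and 12.5 to 64.9 RPKM). All of these sums overlapped between genotypes. None of these markers passed the threshold, and all lists were chosen with earlier results known. Among the remaining lists, the 4 ameloblast markers stood above 0 (median 0.25), the same direction as the epithelium list. Of the 4 osteoblast markers 3 stood below 0 (median -0.23), the same direction as the mesenchyme list. Within that osteoblast list the genes were mixed (Ibsp 0.53, Bglap -0.59). Of the 3 tested nerve markers 2 stood above 0. Of the 4 erythroid markers 3 stood above 0 (median 0.04). Muscle and cartilage transcripts were low but present: Myod1, Myog and Matn1 were near 0, whereas Acta1 reached 14.6 RPKM and Ckm 5.61 RPKM in a null library, Col2a1 averaged 1.80 and 1.83 RPKM, and Col9a1 reached 3.12 RPKM. In such bulk tissue fewer cells of a type and less RNA per cell cannot be told apart, and the part of these markers in the Sdc3 and Gpc6 differences was not tested.

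Across the 12 libraries, 4 members correlated with the mesenchyme list by Pearson r, the list being defined as the mean log2(RPKM + 1) of its 10 genes. The share of all tested genes that correlate as strongly with this or any other marker list was not computed. The values therefore describe these members and do not set them apart from other genes. Relations of the 9 tested members with the mesenchyme and epithelium lists made a family of 18, with permutation p-values (100000 resamples, 2-sided) adjusted by Benjamini-Hochberg. Gpc6 had Pearson r = 0.939 (permutation p = 1e-05, the smallest the resamples can give, adjusted p = 0.00018) and Spearman rho = 0.937 (permutation p = 3e-05, adjusted p = 0.00054). Sdc3 had r = 0.858 (permutation p = 0.00065, adjusted p = 0.0039) and rho = 0.825 (permutation p = 0.00153, adjusted p = 0.0138).

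Gpc2 and Gpc1 ran the opposite way. Gpc2 had r = -0.897 (permutation p = 9e-05, adjusted p = 0.00081) and rho = -0.804 (permutation p = 0.00244, adjusted p = 0.0146). Gpc1 had r = -0.779 (permutation p = 0.00264, adjusted p = 0.0119) and rho = -0.706 (permutation p = 0.0134, adjusted p = 0.0601), so its rank correlation missed the threshold. The 2 libraries farthest from the median of the list were null library 6 and heterozygous library 10. Without them r was 0.937 for Gpc6, 0.645 for Sdc3, -0.805 for Gpc2 and -0.610 for Gpc1.

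These relations were also computed within genotypes. With each genotype's mean removed, r was 0.915 for Gpc6, 0.813 for Sdc3, -0.857 for Gpc2 and -0.702 for Gpc1 (adjusted permutation p = 0.00216, 0.0224, 0.00414 and 0.0434). Within the heterozygous libraries alone r was 0.969 for Gpc6, 0.573 for Sdc3, -0.804 for Gpc2 and -0.523 for Gpc1, and within the null libraries alone it was 0.959, 0.904, -0.953 and -0.908. The values for Sdc3 and Gpc1 were thus smaller in the heterozygous libraries, a difference that was not tested. In libraries 5 to 7 r was 0.960, 0.856, -0.932 and -0.829, and in libraries 8 to 10 it was 0.894, 0.781, -0.859 and -0.719, in the same order of genes. Sdc4 reached r = 0.646 over all libraries (permutation p = 0.0212, adjusted p = 0.0545) and 0.748 with the genotype means removed (adjusted permutation p = 0.00414). Within the heterozygous libraries alone r was 0.835 for Sdc1, 0.839 for Sdc2, 0.819 for Sdc4, 0.702 for Gpc3 and 0.542 for Gpc4. Within the null libraries alone it was 0.127, -0.402, 0.847, 0.685 and -0.382. High values in the heterozygous libraries were thus not particular to the members named first.

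With the epithelium list Sdc3 had r = -0.742 (permutation p = 0.00494, adjusted p = 0.0178) and rho = -0.650 (permutation p = 0.0260, adjusted p = 0.0766). Without libraries 8 and 9 of both genotypes r was -0.750, which no longer passed (adjusted permutation p = 0.098). Without null library 7 and heterozygous library 6, which lay farthest from the median of that list, r was -0.826, and with genotype means removed it was -0.597 (adjusted permutation p = 0.164). Over all libraries, Sdc1, Sdc2, Gpc3 and Gpc4 had no relation with either list that passed the threshold, with r from -0.09 to 0.52.

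**Figure D4:**
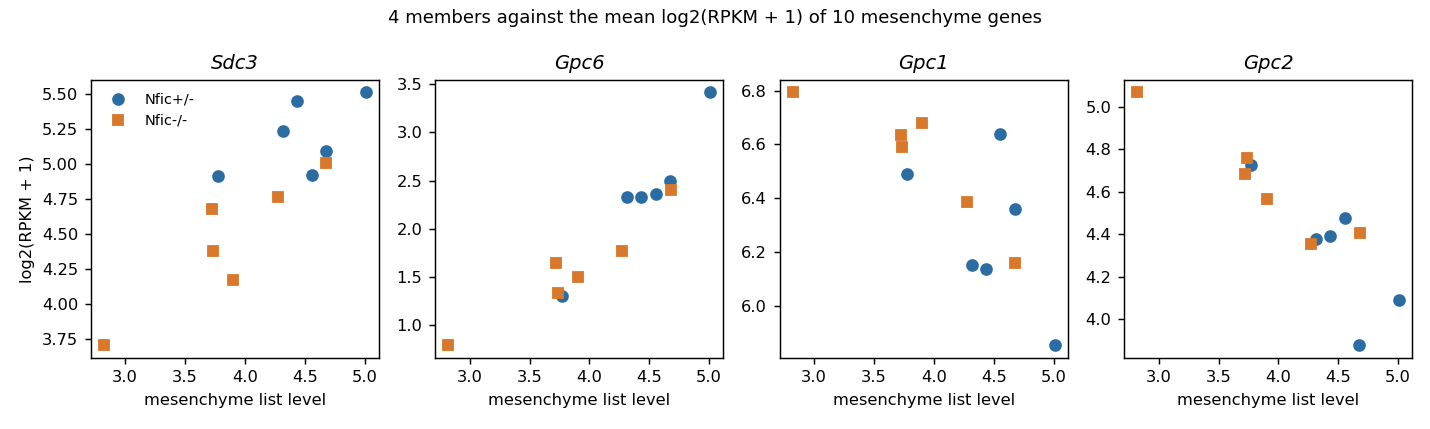
Level of Sdc3, Gpc6, Gpc1 and Gpc2 in log2(RPKM + 1) against the mean log2(RPKM + 1) of 10 mesenchyme genes, with 1 point per library (blue circles Nfic+/-, orange squares Nfic-/-). Sdc3 and Gpc6 increase with the list (r = 0.858 and 0.939) and Gpc1 and Gpc2 decrease (r = -0.779 and -0.897), and the Nfic-/- library at the far left is library 6.

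The members also differed among themselves in pattern. Sdc3 and Gpc6 correlated at r = 0.856 over the 12 libraries, Gpc1 and Gpc2 at r = 0.697, and Sdc3 with Gpc1 at r = -0.858. Sdc4 and Gpc3 correlated at r = 0.765, whereas Sdc1 and Sdc3 were unrelated (r = 0.01). These values share libraries, depth and tissue makeup, and are given as a description. Against the ameloblast list (Amelx, Ambn, Enam and Mmp20), a relation chosen after the values had been seen, Gpc2 had r = 0.907 and Sdc4 r = -0.765 (permutation p = 6e-05 and 0.0032, adjusted p = 0.00108 and 0.0288 over 18 relations with the ameloblast and odontoblast lists). Their rank correlations were 0.916 and -0.727 (permutation p = 5e-05 and 0.00984, adjusted p = 0.0009 and 0.0590), so that of Sdc4 missed the threshold. Gpc6 passed by rank (rho = -0.895, permutation p = 0.00017, adjusted p = 0.00153) but not by Pearson r (-0.698, permutation p = 0.0115, adjusted p = 0.0691). For Gpc2 and Sdc4, without the 2 libraries farthest from the median r was 0.787 and -0.661.

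By likeness of pattern, measured as the Pearson r of log2(RPKM + 1) over the 12 libraries among all tested genes, the gene nearest to Sdc3 was Bgn, the biglycan gene (r = 0.979), followed by Mfsd7c (0.972) and Prkce (0.967). The genes nearest to Gpc6 were Cybrd1 (0.989), Lnx1 (0.986) and Mab21l1 (0.983). Those nearest to Gpc1 were Fzd5 (0.956), N4bp3 (0.941) and Ppp2r1b (0.939). For Gpc2 they were Gal3st4 (0.992), its neighbour on the chromosome, Relt (0.973) and Cntnap2 (0.960), and for Sdc4 they were Mtmr3 (0.984), Smurf1 (0.967) and Nsmce2 (0.966). Sdc1, Sdc2, Gpc3 and Gpc4 had no gene as close, and their nearest were Sorbs3 (0.904), Fibp (0.896), Dnajc8 (0.864) and Abl2 (0.876). With 12094 genes to choose from, some high values arise in 12 libraries in any case, so no p is attached to them.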

How the data were processed

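The authors deposited 1 table of log2 RPKM for 25899 genes in 12 libraries. TopHat2 and the mm10 build are named in the submitters' processing notes. The aligner's version, the counting tool, strand handling and annotation are not stated in these sources. The log2 scale was read from the values (-11.1 to 16.7). Genes without reads sit at a floor worth 0.9 reads. Each library's depth was estimated from genes with 1 annotated transcript at that floor in every library, with GENCODE M21 gene lengths. Separately, low values (below 20 reads) were checked in 2677 genes with at least 6 libraries at that floor: 100% of 7082 were whole within 0.02. A looser criterion tried first, at least 2 libraries at the floor, gave 78.7% of 21831 values in 4417 genes. It was tightened after that share was seen, because a gene with 1 read in several libraries can pass for the floor. With those lengths the reads of 6 members (Sdc1, Sdc3, Sdc4, Gpc3, Gpc4 and Gpc5) also came out whole within 0.02, and no reads are given for the other 4.

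Values were turned back to RPKM. The 12094 genes that averaged at least 1 RPKM were fitted as log2(RPKM + 1) with limma 3.58.1 (R 4.3.3), variance trend and genotype as the only term, with Benjamini-Hochberg adjustment over all tested genes at 0.05. Fold changes on this scale understate the change of low genes. The fit was also run on simulated data with independent noise in each gene and library. The real libraries share structure that this setting lacks, so no conclusion about them is drawn from that run. Separate animals are implied by the labels, but p-values measure only the spread between these libraries. Named were all members, Nfic, the 3 pathway genes with the smallest p per list, the genes most alike in pattern (predicted genes left out) and the marker lists. The members and lists were chosen with earlier results of these data known. Other tools were Python 3.11.15, numpy 2.4.6, pandas 2.3.3, scipy 1.17.1 and matplotlib 3.10.9.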

Additional observations from a re-analysis of the deposited data

How the results depend on the processing

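No gene, member or pathway gene passed the adjusted threshold by limma under any of the 24 other settings (0 in each). Sdc3, Gpc6, Gpc1 and Gpc2 kept their sign in all of them, and leaving out 1 library at a time gave -0.85 to -0.59, -1.01 to -0.59, 0.18 to 0.34 and 0.23 to 0.40. A pseudocount of 0.1 gave -1.06 for Gpc6. The differences near 0 changed sign. Quantile normalization gave -0.0272 for Gpc3 and median scaling 0.0156 for Sdc4. Without libraries 8 and 9 Sdc1 was 0.0507 and Gpc3 -0.0692, and the r of Gpc4 with the mesenchyme list was -0.0342. Without the libraries numbered 6 Sdc4 was 0.150. Libraries 5 to 7 alone gave 0.0818 for Sdc1 and -0.0600 for Gpc3, and libraries 8 to 10 alone gave -0.0330 for Sdc2, 0.0104 for Sdc4 and -0.140 for Gpc4. Leaving out 1 library gave -0.137 to 0.0179 for Sdc1, -0.0213 to 0.0823 for Sdc2, -0.119 to 0.0729 for Sdc4, -0.0226 to 0.0946 for Gpc3 and -0.0307 to 0.0633 for Gpc4. The cause of these changes was not tested.

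With the replicate number as a block, 0 genes passed (smallest adjusted p 0.0872 by limma), 373 higher and 608 lower genes had an unadjusted p under 0.05, and the adjusted p was 0.272 for Sdc3 and 0.304 for Gpc6. Same-numbered libraries correlated at 0.00502 to 0.802 in their deviations from the group means, over 0.1 for 5 of 6 numbers but not for number 6, and 8 of 12 libraries were closest to their own number. This is a hint of pairing, but no label says that a number marks a litter and number 6 does not show it, so the tests treat the libraries as unpaired. By number, Sdc3 and Nfic were lower in the null library at 6 of 6 numbers, a count chosen after the values had been seen. Gpc6 was lower at 5 of 6, but so was Sdc1, whose difference was near 0 (-0.05). Among all tested genes 2.68% were lower at every number, and the share at 5 of 6 was not computed. The median SE over all tested genes was 0.113, and Gpc5 rests on 6 to 182 reads.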
